A study of Mus musculus with 9 samples.

Results

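Genes that move, reduce, oxidise or store iron were followed in mouse intestinal epithelial cultures, 8 in all: Slc11a2, Cybrd1, Tfrc, Fth1, Ftl1, Slc40a1, Heph and Cp. They were chosen by symbol. Each matched 1 row of the 50600 gene rows in the deposited tables, and all 8 were among the 16208 genes kept for testing (TPM, a level scaled for transcript length and library size, of 1 or more in some library). RNA was sequenced from 9 libraries in 3 groups of 3. WT C57BL/6 small intestinal organoids were incubated for 24 h in equal parts of concentrated organoid medium and conditioned medium (cM). The organoid medium held EGF, Noggin and R-spondin. Intestinal tumoroids (Apc1638N/+ genotype, strain given as MIX, labelled untreated, with no time in the labels) were kept, per the study's methods, in medium with EGF and Noggin but no R-spondin, whereas the shared protocol in the labels gives organoid medium for untreated cultures. The methods name at least 3 lines from 3 mice for each experiment, without saying which library came from which mouse. The same methods give the tumour-bearing mice as older than the wildtype donors. On strain the sources conflict, since the methods describe a mixed background for every mouse while the labels give C57BL/6 for the organoids. Genotype, age, tumour origin and medium, and strain if the labels hold, therefore differ together between tumoroids and organoids, and their parts in any difference cannot be told apart.

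The titles and the treatment fields of the 6 organoid libraries name opposite media. Groups are named here after the titles, as T-cM-titled organoids (medium conditioned by tumoroids) and WT-cM-titled organoids (medium conditioned by organoids). If the treatment fields are right, every difference between these groups changes sign, while the comparison of tumoroids with all organoids is unaffected. Library totals lay between 16541635 and 25170966 reads. Epithelial markers were high in all 9 libraries (summed TPM of 6 genes 10125 to 14546), fibroblast and erythroid markers were near 0 (summed TPM up to 1.5 and 0.58), and Apc RNA was present in tumoroids (103 ± 22.5 CPM, reads scaled to library size, SD, n = 3) as in organoids (151 ± 19.2 and 126 ± 21.5 CPM). The mutant allele was not resolved by gene counts.

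Dietary iron is reduced at the enterocyte brush border by the ferrireductase Cybrd1 and enters through the divalent metal transporter Slc11a2. Iron carried in blood is taken up by binding of transferrin to its receptor Tfrc. Inside the cell iron is stored in a shell of ferritin heavy (Fth1) and light (Ftl1) chains, or leaves through ferroportin (Slc40a1), the known iron exporter, with oxidation by the membrane ferroxidase hephaestin (Heph) or its plasma relative ceruloplasmin (Cp). The iron regulatory proteins Aco1 and Ireb2 bind stem-loops called iron-responsive elements: in a 5′ UTR they block translation, and in a 3′ UTR they protect the transcript from decay. Poly(A) RNA levels, as measured here, therefore report on Fth1, Ftl1 and Slc40a1 only before this translational step, while Tfrc RNA itself is subject to it.

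Those elements are printed because their place, in a 5′ or a 3′ UTR, goes with a different step. Annotated UTRs of Gencode vM21 transcripts (GRCm38) were searched on the transcript strand for an unpaired C, 5 stem bases, the 6-base loop CAGTGN with the last base not G, and 5 bases pairing with the stem (G with T allowed). Of 21505 coding genes with an annotated UTR, 0.107% held a match in a 5′ UTR and 0.512% in a 3′ UTR. Among the 8 genes, Fth1, Ftl1 and Slc40a1 matched once each in the 5′ UTR and Tfrc 4 times in the 3′ UTR. Each is shown 5′ to 3′ as DNA in a window of 30 bases, with the loop in capitals. No match was found in Slc11a2, Cybrd1, Heph or Cp, which says only that these letters are not in their annotated UTRs. Elements of another form would be missed, so the search does not sort all 8 genes. A match is a description of the sequence, not evidence of binding in these cells.
Fth1, 5′ UTR, chr19:9982731-9982760, plus strand: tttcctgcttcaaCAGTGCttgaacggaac
Ftl1, 5′ UTR, chr7:45459779-45459808, minus strand: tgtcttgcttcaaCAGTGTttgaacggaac
Slc40a1, 5′ UTR, chr1:45925465-45925494, minus strand: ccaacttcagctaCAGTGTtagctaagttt
Tfrc, 3′ UTR, chr16:32631218-32631247, plus strand: taattatcggaagCAGTGCcttccataatt
Tfrc, 3′ UTR, chr16:32631597-32631626, plus strand: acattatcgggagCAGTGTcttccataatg
Tfrc, 3′ UTR, chr16:32631662-32631691, plus strand: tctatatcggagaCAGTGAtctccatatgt
Tfrc, 3′ UTR, chr16:32631709-32631738, plus strand: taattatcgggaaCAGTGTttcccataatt

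Per transcript length, ferritin stood far above the other genes in every library. In organoids Fth1 averaged 9166 ± 2415 TPM and Ftl1 2338 ± 178 TPM (SD, n = 6), and the ranges of the 2 genes did not overlap. Heph followed at 86.7 ± 17.1 TPM, Tfrc at 74.1 ± 23.6, Slc11a2 at 59.9 ± 20.8, Cybrd1 at 39.8 ± 36.7 and Slc40a1 at 18.6 ± 9.06 TPM. Each of these 5 overlapped its neighbour in that order. Cp came last at 0.010 ± 0.0089 TPM. In tumoroids the order began with Fth1 (2491 ± 490 TPM, SD, n = 3) and Ftl1 (1523 ± 217 TPM). Tfrc, Slc40a1, Heph, Slc11a2 and Cybrd1 followed with overlapping ranges between 25.8 and 150 TPM, and Cp was again lowest (11.2 ± 11.6 TPM).

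**Figure D1:**
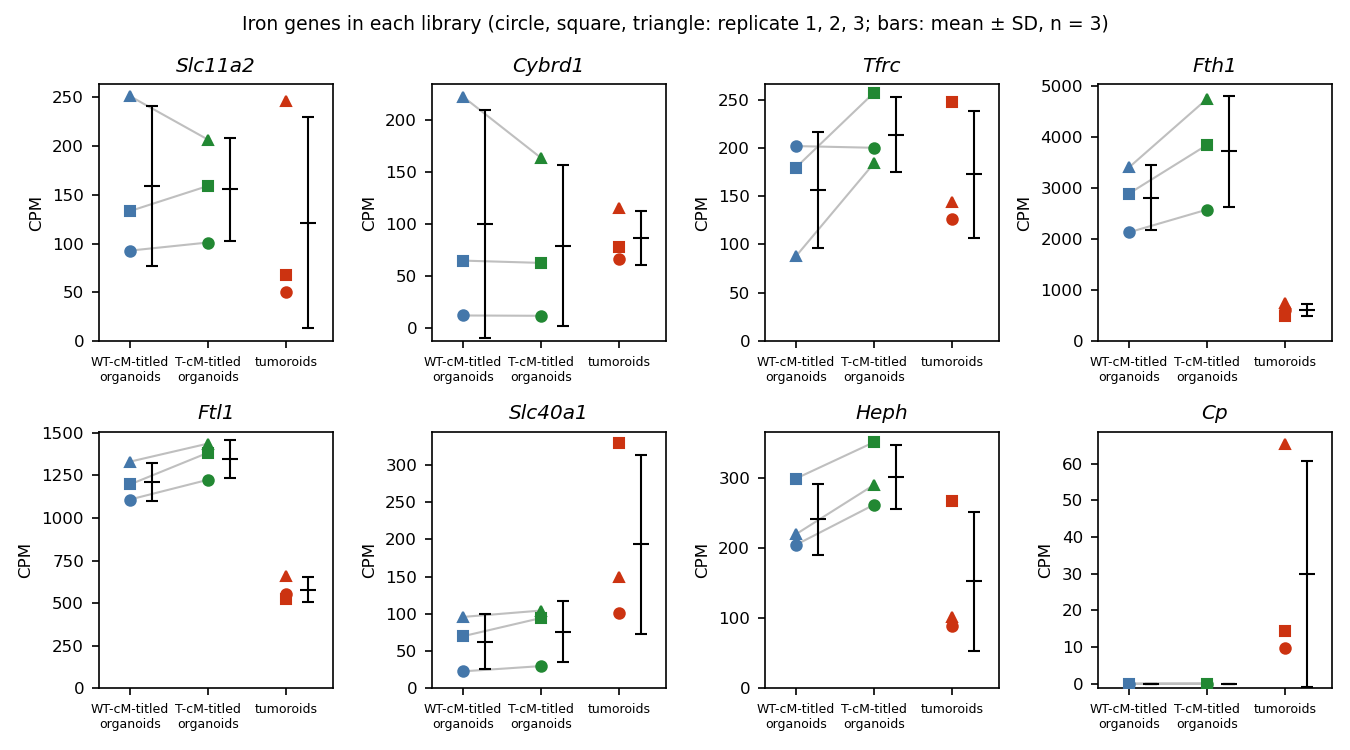
CPM of the 8 iron genes in each library (vertical axes linear). Points are libraries, grey lines join organoid libraries with the same replicate number, and black bars give the mean ± SD of 3 libraries. Fth1 and Ftl1 lie lower and Cp higher in all 3 tumoroid libraries than in any organoid library, and Cybrd1 in organoids spreads from 12.0 to 222.9 CPM by replicate number.

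Tumoroids against organoids: the storage genes were lower and Cp was higher. Of the 8 genes, 4 passed the test at an adjusted p under 0.05 (edgeR quasi-likelihood test, Benjamini-Hochberg over 16208 genes), where 50.4% of all tested genes passed. Among the 4, Cp had reached the TPM filter in tumoroids alone. All 4 also passed a 2-fold threshold, which 33.1% of tested genes did. Cp, Fth1 and Ftl1 did not overlap between tumoroids and organoids, against 45.8% of all genes. Neither share is a result about iron genes as a group. The values of single genes follow by role.

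Among the uptake genes none passed. Slc11a2 had 92.8, 133 and 251 CPM in WT-cM-titled organoids 1 to 3, 101, 159 and 207 CPM in T-cM-titled organoids, and 50.0, 68.1 and 246 CPM in tumoroids. Tumoroids 1 and 2 lay below every organoid library and tumoroid 3 within the upper part of their range. The log2 fold change was −0.37 (SE 0.51, adjusted p = 0.58, edgeR). Without tumoroid 3 it was −1.43 (adjusted p = 0.016), so this library decides the call. The same library held 534 CPM of Egln3, a prolyl hydroxylase of the hypoxia response, against 65.8 and 48.9 CPM in the other tumoroids, and 220.0 CPM of Ncoa4, the ferritin autophagy receptor, against 47.9 and 83.2 CPM. Its part in the Slc11a2 value was not tested.

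Cybrd1 had 66.7, 77.9 and 116 CPM in tumoroids, inside the organoid range. Its log2 fold change was −0.04 (SE 0.84, adjusted p = 0.98). Tfrc had 126, 248 and 144 CPM in tumoroids, against 202, 179.7 and 87.8 CPM in WT-cM-titled organoids and 200.1, 257 and 184 CPM in T-cM-titled organoids. The groups overlapped, and the log2 fold change was −0.08 (SE 0.29, adjusted p = 0.84). Neither estimate kept its sign under the 18 alternatives run for each. Cybrd1 changed sign in 8 (range −0.32 to 1.19) and Tfrc in 5 (−0.45 to 0.43), both on the TPM scale and off it. On the TPM scale the median of all genes itself moved up by 0.47 to 0.50 (log2). The cause of the sign changes was not tested.

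The storage genes fell. Fth1 had 605, 496 and 738 CPM in the 3 tumoroid libraries, against 2127, 2885 and 3397 CPM in WT-cM-titled organoids and 2572, 3837 and 4738 CPM in T-cM-titled organoids. All tumoroid libraries lay under the lowest organoid library. The log2 fold change was −2.40 (SE 0.28, adjusted p = 8.6e-05, edgeR), which leaves 0.19 of the organoid level. Ftl1 had 553, 521 and 661 CPM in tumoroids, 1108, 1196 and 1330 CPM in WT-cM-titled organoids and 1224, 1383 and 1436 CPM in T-cM-titled organoids. Again no library overlapped, and the log2 fold change was −1.14 (SE 0.16, adjusted p = 2.4e-04). Ferritin pseudogenes share sequence with both genes. Rows named as such held at most 0.015% of the Fth1 reads and 0.462% of the Ftl1 reads in any library, although reads the counting may have shifted to or from unnamed copies are uncertain.

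Because Fth1 fell further than Ftl1, the chain ratio differed. Fth1 TPM divided by Ftl1 TPM was 2.97, 3.73 and 3.95 in WT-cM-titled organoids, 3.25, 4.29 and 5.10 in T-cM-titled organoids, and 1.69, 1.47 and 1.73 in tumoroids. The tumoroid ratios (1.63 ± 0.14, SD, n = 3) lay below every organoid ratio (3.88 ± 0.76, SD, n = 6). The 2 chains together took 1.15 ± 0.26% of all TPM in organoids and 0.40 ± 0.069% in tumoroids. No test was run on these ratios, which describe RNA and not the chains in the protein shell.

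**Figure D2:**
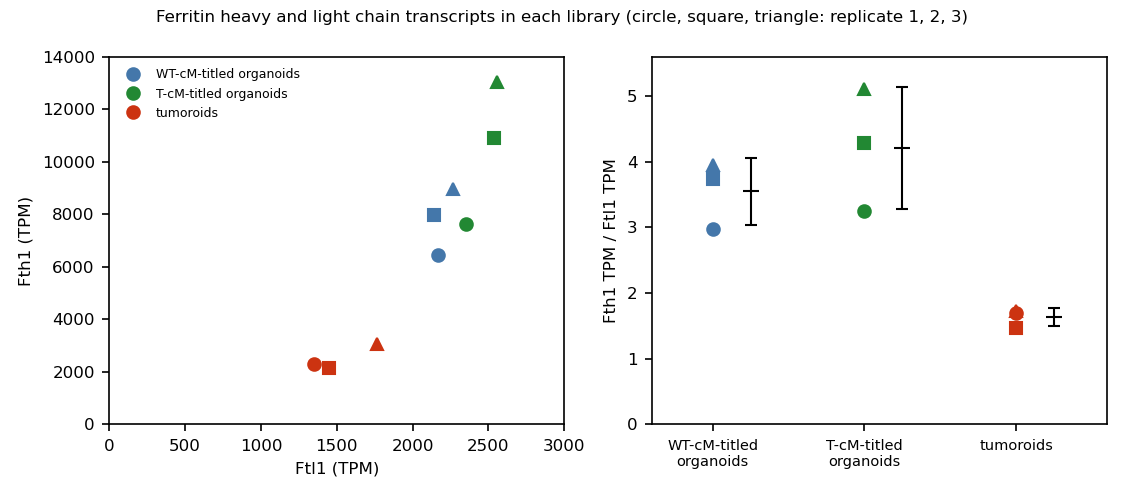
Left, Fth1 against Ftl1 in TPM for each of 9 libraries. Right, the ratio of the 2 per library with the mean ± SD of 3 libraries. The 3 tumoroid ratios sit between 1.47 and 1.73, below the lowest organoid ratio of 2.97.

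Differentiated enterocyte genes moved with ferritin. Of 10 enterocyte markers 9 were lower in tumoroids (all but Mep1a), where 20.8% of all genes were. The summed TPM of the 10 was 125 to 497 in tumoroids against 29134 to 62629 in organoids. Of 5 crypt and stem cell markers, 4 were higher in tumoroids, where 29.6% of all genes were. Among the 4, Lgr5 reached the TPM filter in tumoroids alone, at up to 0.45 TPM in organoids and 36.8 TPM in tumoroids. Ascl2, Smoc2 and Axin2 reached the filter in organoids too. Olfm4 did not pass, with 1.90 to 19.4 CPM in tumoroids and 9.36 to 157 CPM over all organoid libraries. In bulk RNA, fewer cells of a type and less RNA per cell cannot be told apart. The part of enterocyte content in the ferritin values was not tested. Fabp1, a fatty acid binding protein, fell by 10.52 on the log2 scale and Sis, sucrase-isomaltase, by 8.88.

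The export genes did not move as 1 unit. Slc40a1 had 101, 329 and 149 CPM in tumoroids, against 22.8, 69.9 and 95.8 CPM in WT-cM-titled organoids and 29.8, 94.3 and 104 CPM in T-cM-titled organoids. Tumoroid 1 lay just under the highest organoid library, so the groups touched. The log2 fold change was 1.48 (SE 0.51, adjusted p = 0.035), a level 2.79 times that of organoids. The call depended on single libraries: without tumoroid 2 the value was 0.84 (adjusted p = 0.22), and it was also lost without T-cM-titled organoid 1 (adjusted p = 0.050), T-cM-titled organoid 2 (0.051) or WT-cM-titled organoid 2 (0.061). Against WT-cM-titled or T-cM-titled organoids alone, Slc40a1 did not pass (adjusted p = 0.063 and 0.11), although it passed against both on log2 TPM (adjusted p from 0.015 to 0.032) and with the replicate block (0.0028 and 0.0059), and against WT-cM-titled organoids also with DESeq2 (0.025), with no TPM filter (0.031) and without tumoroid 1 (0.046). These 2 comparisons share the tumoroid libraries. In each, 3 of the 8 genes passed (Cp, Fth1 and Ftl1), where 41.9% and 44.5% of all genes did.

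Heph had 88.7, 267 and 102 CPM in tumoroids, 205, 299 and 219.8 CPM in WT-cM-titled organoids and 262, 351 and 290.2 CPM in T-cM-titled organoids. Tumoroids 1 and 3 were below all organoids and tumoroid 2 was within their range. The log2 fold change of −0.82 (SE 0.34) did not pass (adjusted p = 0.069, edgeR). Without tumoroid 2 it was −1.51 (adjusted p = 3.6e-04), and it also passed with limma voom (−0.99, adjusted p = 0.026), DESeq2 (−0.88, adjusted p = 0.022) and the replicate block (−0.96, adjusted p = 0.0070). Tumoroid 2 was thus the highest of its group for Tfrc, Slc40a1 and Heph and tumoroid 3 for Slc11a2, Cybrd1, Fth1, Ftl1 and Cp.

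Cp was nearly silent in organoids: the 6 libraries held 4 reads in all (0, 1 and 0 in WT-cM-titled and 1, 1 and 1 in T-cM-titled organoids). Tumoroids held 216, 390 and 1903 reads, or 9.79, 14.5 and 65.4 CPM. All 3 tumoroid libraries were above all organoids, and tumoroid 3 was the highest by a wide margin. With reads scaled to library size as for CPM, the pooled tumoroid level was 873 times the pooled organoid level. The 95% exact interval was 340.4 to 3205, which covers counting error only, and the ratio was 336 without tumoroid 3. Cp reached the TPM filter through tumoroids alone (organoid maximum 0.020 TPM), so the choice of tested genes favoured a difference, and its adjusted p (1.3e-05, edgeR) is given as a description. Cp is made mainly in liver. Of the liver markers Alb, Ttr and Afp, Afp was lower in tumoroids and the others did not pass, and Alb had 22, 593 and 0 reads in tumoroids 1 to 3. Summed, the liver markers reached 49.4 to 59.7 TPM in tumoroids and 32.4 to 47.6 TPM in organoids. Macrophages also make Cp, and of 6 immune markers Cd68 (0.65 to 1.77 TPM in organoids, 11.9 to 58.3 TPM in tumoroids) and Csf1r (0.090 to 1.71 TPM in organoids, 1.82 to 15.6 TPM in tumoroids) were higher in tumoroids. Csf1r overlapped between them in CPM and did not pass against T-cM-titled organoids alone (adjusted p = 0.079), and Lyz2 did not pass (10 and 18 reads in the organoid groups, 4 in tumoroids). Adgre1 had 0 reads in tumoroids and up to 2 in an organoid library, Cd163 had 0 reads in all 9 libraries, and the leukocyte marker Ptprc had 4, 19 and 6 reads in tumoroids and 0 to 16 in organoids. The 6 immune markers summed to 1.12 to 3.55 TPM in organoids and 13.9 to 61.9 TPM in tumoroids, and their part in the Cp value was not tested. The related ferroxidase Hephl1 had at most 2 reads in any library.

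Between the organoid groups, 4 of the 8 genes passed, each less than 2-fold higher in the T-cM-titled libraries. Among all genes 10.1% passed, 5.03% with a higher and 5.05% with a lower level. The 2-fold threshold was also passed by 1.1% of all genes and by 0 of the 8. The fit compared libraries of the same replicate number. Fth1 was higher in all 3 pairs (log2 ratios of CPM 0.27, 0.41 and 0.48), with a log2 fold change of 0.40 (SE 0.067, adjusted p = 1.4e-04, edgeR). Heph was higher in all 3 pairs (0.36, 0.23 and 0.40), with 0.34 (SE 0.075, adjusted p = 0.0029). Slc40a1 was higher in all 3 pairs (0.39, 0.43 and 0.12), with 0.32 (adjusted p = 0.018). Tfrc differed little in pair 1 (−0.013) and was higher in pairs 2 and 3 (0.52 and 1.07), with 0.53 (SE 0.12, adjusted p = 0.0025). The 4 thus held a storage gene, the transferrin receptor, the exporter and a ferroxidase.

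The other 4 genes did not pass. Ftl1 was higher in all 3 pairs (0.14, 0.21 and 0.11) with a log2 fold change of 0.17 (adjusted p = 0.13). Cybrd1 was lower in all 3 pairs (−0.036, −0.050 and −0.44) with −0.19 (adjusted p = 0.24). Slc11a2 was higher in pairs 1 and 2 (0.12 and 0.26) and lower in pair 3 (−0.28), with 0.04 (adjusted p = 0.86), and Cp had too few reads. Of the 8 genes 6 took 1 direction in all 3 pairs (Cp among them, on 4 reads), against 41.2% of all genes, and 0 of 8 had groups that did not overlap, against 10.4%. The 4 calls depended on the pairing: without it none passed (adjusted p from 0.93 to 0.98), and none passed without replicate pair 2 (adjusted p from 0.30 to 0.55). On log2 TPM none of the 4 passed with either pseudocount (adjusted p from 0.28 to 0.40). Slc40a1 and Tfrc were also lost under limma voom (adjusted p = 0.11 for each), DESeq2 (0.059 and 0.37) and the newer quasi-likelihood form (0.050 and 0.055). Without pair 3, Heph (adjusted p = 0.080) and Tfrc (0.22) were lost, and without pair 1 Cybrd1 passed as well, lower by −0.25 (adjusted p = 0.042). Beside them, 2 of 10 enterocyte markers were higher and 4 lower (Fabp1 by −0.61), 2 of 5 crypt and stem cell markers were lower, and 3 of 5 proliferation markers were lower in the T-cM-titled libraries, whose part in the iron gene values was not tested. If the treatment fields hold the right media, the 4 iron genes were lower, not higher, in organoids given tumoroid medium.

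**Figure D3:**
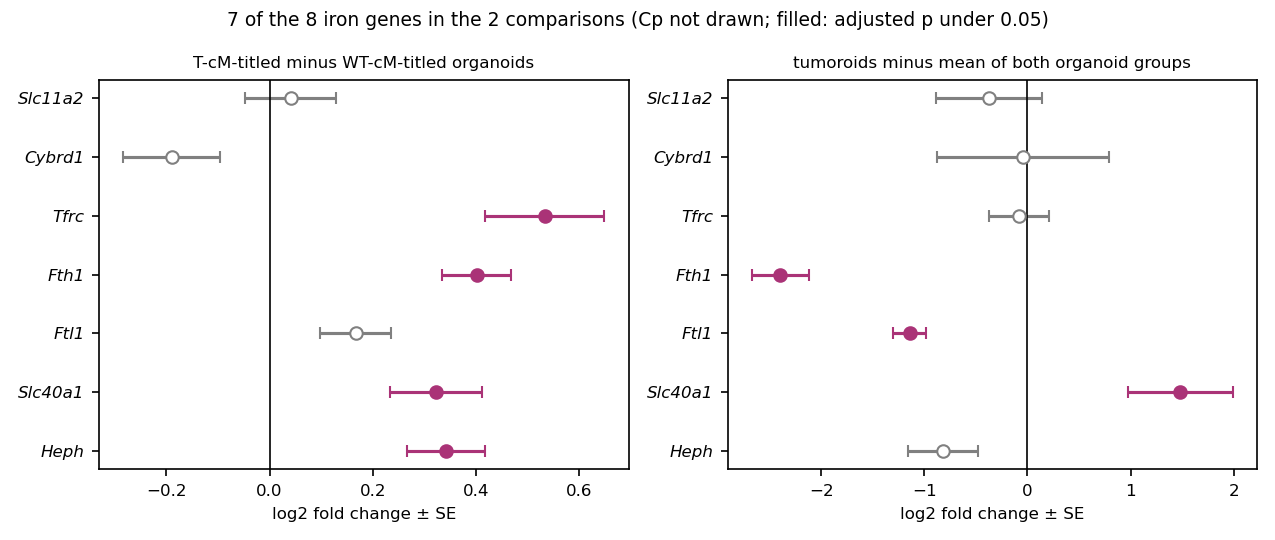
Log2 fold changes ± SE of 7 iron genes from edgeR fits, for T-cM-titled minus WT-cM-titled organoids (left, 6 libraries) and tumoroids minus the mean of both organoid groups (right, 9 libraries). Filled points passed at adjusted p under 0.05. The horizontal scales differ, and the left estimates all lie between −0.19 and 0.53. Cp is left out because its organoid libraries held 4 reads in all.

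Within organoids the replicate number went with larger differences than the medium for several of these genes. A test of the replicate number in the same 6 libraries, chosen after the values were seen, passed for 6 of the 8 genes (31.8% of all genes passed). The labels do not say whether a number stands for a mouse, a line or a day. Cybrd1 had 12.0 and 12.3 CPM in the replicate 1 libraries, 62.9 and 65.1 CPM in replicate 2, and 164 and 223 CPM in replicate 3. The 2 libraries of a number were close and the 3 numbers did not overlap. The log2 difference was 2.39 between replicates 2 and 1 and 3.98 between 3 and 1 (adjusted p = 8.1e-20, edgeR), and 0.561% of tested genes had a larger absolute difference between 3 and 1 than this ferrireductase. The size of that adjusted p depended on the tool, at 4.7e-09 with the newer quasi-likelihood form and 1.4e-05 with limma voom.

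Slc40a1 followed the same order, with differences of 1.63 and 1.94 (adjusted p = 3.3e-13), as did the importer Slc11a2 with 0.59 and 1.24 (adjusted p = 1.8e-09) and Fth1 with 0.50 and 0.78 (adjusted p = 6.5e-08). Tfrc took the opposite sign in replicate 3 (0.07 and −0.65, adjusted p = 2.9e-04), with replicate 3 at 0.43 of replicate 1 in WT-cM-titled and 0.92 in T-cM-titled organoids. The Tfrc call was lost without WT-cM-titled organoid 3 (adjusted p = 0.26) or T-cM-titled organoid 2 (0.085). Heph was highest in replicate 2 (0.48 and 0.13, adjusted p = 3.2e-04), a call lost without WT-cM-titled organoid 2 (adjusted p = 0.082). Ftl1 (0.14 and 0.25, adjusted p = 0.062) and Cp did not pass, although Ftl1 did with RLE scaling factors (0.049) and with no TPM filter (0.026). Cybrd1, Slc40a1, Slc11a2 and Fth1 thus lay higher in replicate 3 than in replicate 1.

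Other genes differed by replicate number too. The stem cell gene Olfm4 lay lower by −2.82 and −3.56 (log2), as did 4 of the 5 proliferation genes, Mki67, Top2a, Mcm2 and Mcm5, by −0.93 to −1.41, while Pcna did not pass (adjusted p = 0.20). Of the 10 enterocyte genes, 7 passed and lay higher in replicates 2 and 3, among them Fabp1 (0.69 and 1.17) and Apoa4 (0.74 and 0.98). The other 3 did not follow: Anpep lay lower (−0.26 and −0.52, adjusted p = 0.0019), Krt20 took both signs (0.26 and −0.18, adjusted p = 0.0065) and Fabp2 did not pass (adjusted p = 0.24). Egln3 lay higher by 0.99 and 1.85 (adjusted p = 6.8e-13). All distal intestinal markers lay higher: Guca2a by 1.58 and 1.64, Slc10a2 by 1.79 and 1.01, and Fabp6, on few reads, by 1.53 and 1.53 (adjusted p = 0.041). The proximal markers Gata4 (−0.04 and −0.18, adjusted p = 0.29), Pdx1 (0.063) and Onecut2 (0.24) did not pass. The part of these differences in the iron gene values was not tested.

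**Figure D4:**
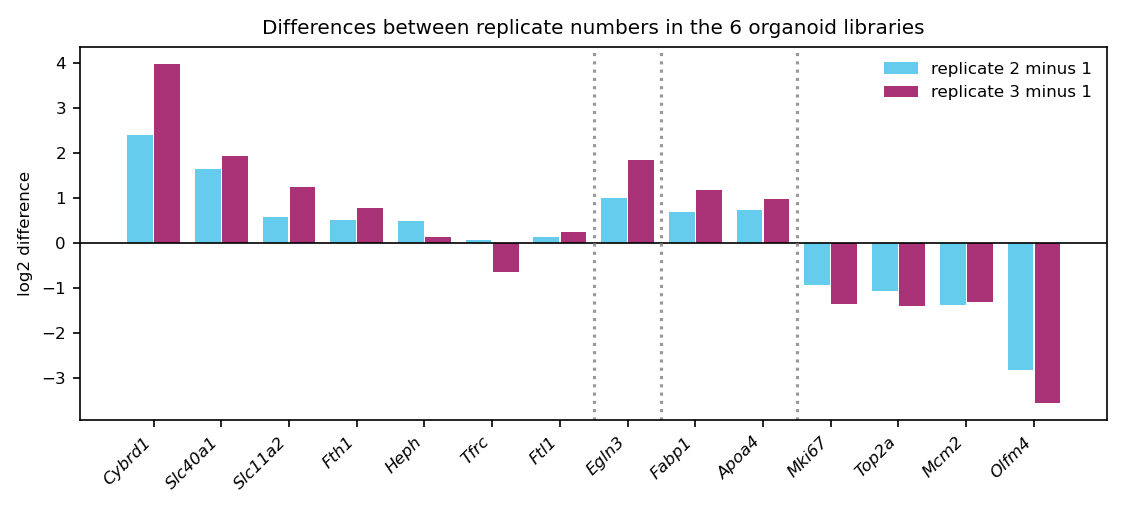
Log2 differences of replicate 2 (light) and replicate 3 (dark) from replicate 1 in the 6 organoid libraries. From left to right, dotted lines part 7 iron genes, Egln3, 2 enterocyte genes, and 3 proliferation genes with Olfm4. Cybrd1 reached 3.98 and Olfm4 −3.56, and no error bars are drawn. Anpep, Krt20, Fabp2 and Pcna, which did not follow the other genes of their lists, are not shown.

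A wider list of 63 symbols from iron and haem metabolism was read beside the 8 genes, and 51 of them were tested. In tumoroids 9 were higher and 21 lower, where 29.6% and 20.8% of all genes were (median log2 fold change −0.34, against 0.16 over all tested genes). Both iron regulatory proteins were lower: Aco1 by −1.72 (SE 0.13, adjusted p = 7.6e-06) and Ireb2 by −0.86 (adjusted p = 0.0012), whereas Fbxl5, which marks Ireb2 for decay, did not pass (−0.26, adjusted p = 0.23). Of 17 genes of mitochondrial iron, haem and iron-sulphur cluster synthesis 12 were lower and 0 higher. Among them were the mitochondrial iron importer Slc25a28 (−1.37) and Alas1 (−1.05), which starts haem synthesis. Ndfip2 (−1.64) and Ndfip1 (−0.54), adaptors that lead Slc11a2 to ubiquitination, were lower too, as were Hif1a (−1.30) and the haem and drug exporter Abcg2 (−3.04).

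Of the 9 genes that were higher, 4 reached the TPM filter in organoids as well. Steap1 (2.58, adjusted p = 2.6e-04) and Steap2 (1.36, adjusted p = 1.2e-04), members of the Steap family of membrane proteins, were higher in tumoroids, whereas Steap3, the ferrireductase of the transferrin cycle, did not pass (−0.30, adjusted p = 0.63). Slc39a8, a zinc and iron importer, was higher (1.43, adjusted p = 0.0035), and its relative Slc39a14 did not pass (−0.69, adjusted p = 0.11). Slc48a1, which moves haem out of lysosomes, was higher too (2.47, adjusted p = 3.1e-05). The other 5, Ltf, Lcn2, Tmprss6, Steap4 and Bmp6, reached the filter through tumoroids alone, so their calls were fixed in part by the filter and their values are a description. Ltf, lactoferrin, had 904, 94 and 5442 reads in tumoroids 1 to 3 and 30 reads in all organoids, a pooled ratio of 299 (95% exact interval 209 to 443) that was 73.8 without tumoroid 3. Lcn2, the siderophore binder, had 255, 243 and 1591 reads against 6 in all organoids, a pooled ratio of 484 (222 to 1321) that was 184 without tumoroid 3. For both, tumoroid 3 held most of the reads, and the intervals cover counting error only, not the spread between libraries. Tmprss6 and Steap4, with 0 organoid reads, were at least 67.7-fold and 61.2-fold higher, against a floor of 3 reads over the 6 libraries, and Steap4 at least 22.9-fold higher without tumoroid 3. Bmp6 had 10, 6 and 25 tumoroid reads and 0 to 5 reads in each organoid library, and did not pass against WT-cM-titled organoids alone (adjusted p = 0.16).

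**Figure D5:**
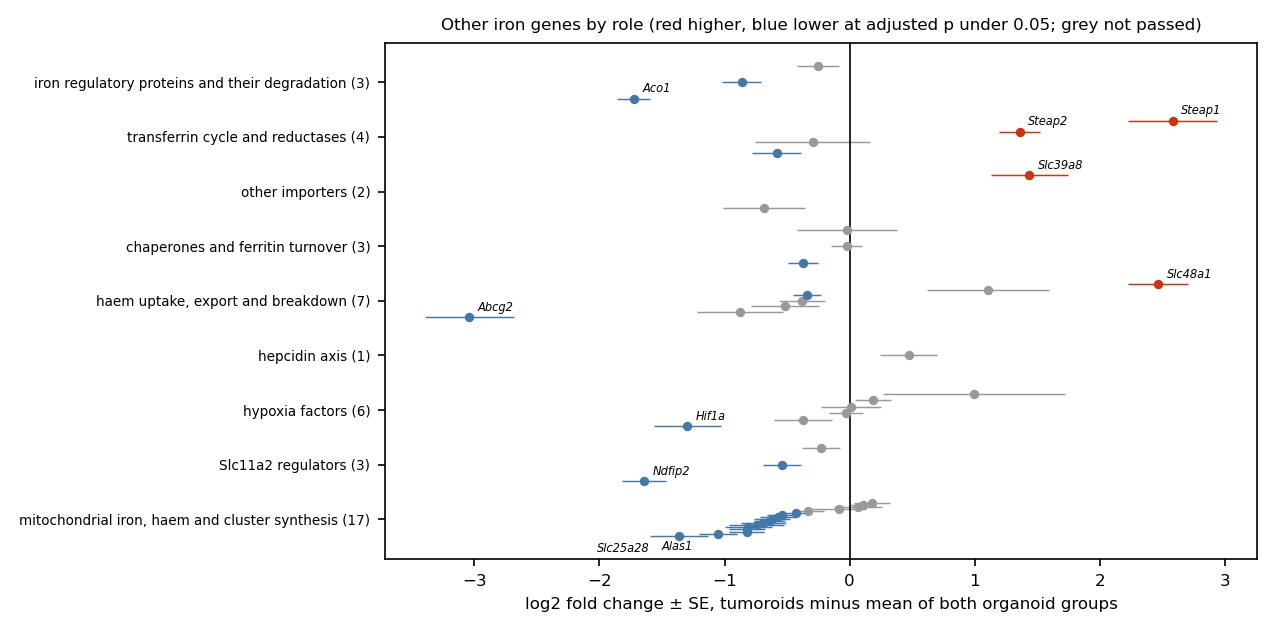
Log2 fold changes ± SE of 46 further iron genes, tumoroids minus the mean of both organoid groups, grouped by role with the number of genes drawn in brackets. Red and blue points passed at adjusted p under 0.05. Of 17 mitochondrial genes 12 are blue, and the 5 genes that reached the TPM filter in tumoroids alone (Ltf, Lcn2, Tmprss6, Steap4 and Bmp6) are left out.

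Between the organoid groups the wider list held 5 genes that passed with a higher level in T-cM-titled libraries, 7 with a lower level and 39 that did not pass, of 51 tested, beside 5.03% and 5.05% of all genes. Hmox1, the inducible haem oxygenase that frees iron, was higher by 0.76 (SE 0.14, adjusted p = 5.9e-04), and Ncoa4 (0.29, adjusted p = 0.018), Hif1a (0.26), Ndfip2 (0.24) and Nedd4l (0.28) were also higher. Slc39a8 (−0.65, adjusted p = 2.2e-04), Steap3 (−0.88, adjusted p = 0.0019), Fech (−0.42, adjusted p = 0.0042), Slc48a1 (−0.62, adjusted p = 0.0059) and Blvrb (−0.48, adjusted p = 0.012) were lower, with Alad and Cpox. Aco1 (−0.03) and Ireb2 (0.02) did not pass here. These calls too depended on the pairing: of all 16208 genes, 0 passed with no replicate block (904 at an unadjusted p under 0.05, edgeR) and 1 passed without pair 2.

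The genes whose profile over the 9 libraries was most like each iron gene were read from 9360 genes with a mean of at least 10 CPM, by Pearson correlation of log2 CPM. All points share the split between tumoroids and organoids, so these values are a description. Fth1 was closest to Atp6v0d1 (0.996), Apobec1 (0.995) and Ftl1 (0.994), and Ftl1 to Apobec1 (0.996), Ldha and Cat (both 0.995). Cp was closest to Rdh10 (0.997), Msn (0.997) and Scara3 (0.996), Heph to Copa (0.990), Onecut2 (0.984) and Ccdc47 (0.980). Slc40a1 stood nearest Fam213a (0.994), 2310030G06Rik (0.965) and Slc35f6 (0.958). Cybrd1 stood nearest Upk3b (0.975), Grina (0.952) and Nudt22 (0.948), Tfrc nearest Phrf1 (0.958), Msl2 (0.946) and Uba6 (0.938), and Slc11a2 nearest Arrdc3 (0.956), Tmem45b (0.952) and Trp53inp2 (0.943).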

How the data were processed

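Poly(A) RNA libraries (TruSeq Stranded) were sequenced as paired reads. Per the labels and the study's methods, the authors aligned reads to mm10 with STAR. The raw counts (whole reads for each Gencode vM13 gene) and the TPM values were both deposited by the authors. The counting tool and its strand setting are not given in the sources used here, so overlapping and antisense genes are uncertain. A gene was tested where 1 or more of the 9 libraries reached 1 TPM (16208 of 50600), with edgeR 4.0.16 (R 4.3.3) by the quasi-likelihood test in its older form, TMM factors and Benjamini-Hochberg adjustment. Tumoroids were compared with organoids in 1 fit of 9 libraries (no block), the organoid groups in a fit of 6 blocked on replicate number. The model terms and the TPM filter follow the study's methods, but the test does not, since the study used limma voom. Between the organoid groups 581 genes passed with voom and 1634 with edgeR. The 3 same-numbered organoid pairs deviated together (correlation 0.55, 0.34 and 0.55), which the labels do not explain. The 6 organoid libraries thus form 3 pairs, yet counted as 6 in the comparison with tumoroids. A gene passed at an adjusted p under 0.05, and the 2-fold threshold is a log2 fold change of 1. CPM use TMM-scaled totals. SE is the log2 fold change over the root of F. P-values measure the spread between these libraries. Counts were simulated with 100 changed genes of each size. For tumoroids 84% of log2 changes of 1.5 and 98% of those of 2 were recovered, and 6.19% of calls were false. Between organoid groups 100% of both were recovered, and 6.98% of calls were false. The simulated counts held no differences between replicate numbers and no changes as small as those called for iron genes between organoid groups. These rates therefore say nothing about those calls. Alternatives were limma 3.58.1 (voom, and log2 TPM with pseudocounts of 1 and 0.1), DESeq2 1.42.0, other filters and factors, and leaving out each library. The genes and lists were chosen with earlier results of these data known. All 8 genes are named. From the wider list, up to 5 genes per direction with the smallest p were named, plus genes needed beside an iron gene. The 3 closest profiles of each gene are given. Positions are from Gencode vM21 on GRCm38.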

Additional observations from a re-analysis of the deposited data

Results flagged for a closer look

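Lrp2, the endocytic receptor megalin, which takes up iron carriers among other ligands, did not reach 1 TPM in any library and entered no comparison above. It had 5, 9 and 27 reads in the T-cM-titled organoids and 0 in each WT-cM-titled organoid library, of between 16541635 and 25170966 reads in all. It is given here because reads appeared in data outside the tested genes and only in the libraries of 1 of these 2 groups. No p-value is given, since the gene was chosen for these reads. Of the tumoroids, 1 library had 28 reads and the other two had 1 read each. Which medium the reads go with depends on the label taken as right.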

How the results depend on the processing

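Under the alternatives, 9 counts and 32 log2 fold changes were recomputed 621 times in all, and 519 values kept their direction and side of the threshold (counts, within 1.5 times). Fth1 and Ftl1 kept their calls in tumoroids against all organoids under every alternative run (Fth1 −2.57 to −1.86, Ftl1 −1.27 to −0.62, log2).

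Between the organoid groups, 4 iron genes passed. The number was 2 under limma voom, DESeq2 and the newer quasi-likelihood form, 0 on log2 TPM with either pseudocount, and 0 to 5 without 1 replicate pair. Genes called past 2-fold numbered 179 of 16208, 104 with voom, 93 with DESeq2, 0 on log2 TPM (0.1 or 1 added; 2553 and 2690 genes at an unadjusted p under 0.05), 1 to 385 without 1 pair (1 without pair 2, 1557 at an unadjusted p under 0.05), and 1634 with no fold threshold. With no replicate block, 0 iron genes passed and 0 genes were called (904 at an unadjusted p under 0.05, edgeR). For tumoroids against all organoids, 8165 genes passed with no fold threshold (5363 with it). The labels do not say whether the numbers pair tumoroids with organoids, and same-numbered libraries deviated together weakly or not at all (correlations −0.070 to 0.20). The study describes its tumoroids as the source of the tumoroid medium, without matching libraries. Adding the replicate block to the tumoroid fits gave 5 iron genes passing against each organoid group instead of 3. Heph (−0.80, adjusted p = 0.029, and −1.13, adjusted p = 0.0065) and Slc40a1 (1.72, adjusted p = 0.0028, and 1.42, adjusted p = 0.0059) then passed, as did Heph against all organoids (−0.96, adjusted p = 0.0070). Against T-cM-titled organoids Heph also passed with limma voom (−1.16), DESeq2 (−1.04) and no TPM filter (−0.96).

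Values that changed sign all belonged to genes that did not pass. Slc11a2 between organoid groups was −0.016 without the block and −0.079 to 0.19 without 1 pair. Against WT-cM-titled organoids and without 1 library, Slc11a2 ran from −1.44 to 0.10, Cybrd1 from −0.74 to 1.17 and Tfrc from −0.22 to 0.36. Against T-cM-titled organoids the ranges were −1.42 to 0.013, −0.38 to 1.22 and −0.68 to −0.12, and against all organoids Cybrd1 ran from −0.32 to 0.65 and Tfrc from −0.45 to 0.10. Cybrd1 was 0.55 (voom), 1.05 and 1.11 (log2 TPM, 1 and 0.1 added) and 0.70 (block) against WT-cM-titled organoids, and 0.67, 1.13, 1.19 and 0.81 against all organoids. Tfrc on log2 TPM was 0.15 with either pseudocount against T-cM-titled organoids, and 0.42 and 0.43 against all organoids. The TPM scale moved the median of all genes by 0.46 to 0.51 in the tumoroid comparisons, and the cause of the sign changes was not tested.

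The replicate-number test passed for 5 to 7 of the 8 iron genes under its alternatives, added after seeing the data. Heph was lost without WT-cM-titled organoid 2, and Tfrc without T-cM-titled organoid 2 or WT-cM-titled organoid 3. Ftl1 was gained with RLE scaling factors or no TPM filter. Depth limits Cp in organoids, where 3 reads equal 0.13 to 0.20 CPM.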
